A study of Mus musculus with 12 samples.

Results

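Collagens are trimers of alpha chains that wind into a triple helix, and each chain has a gene of its own. The genes described here are the protein-coding entries named Col, a type number, the letter a and a chain number, without Col2a1 and Col10a1. They are 42 of the 54532 genes in the deposited count table, and were sorted into 10 fibrillar, 6 basement membrane and 26 other chains. Counts came from RNA sequencing of 12 libraries of mouse ATDC5 cells, an established WT line, labelled as progenitors of cartilage, that can form cartilage nodules in culture. All cells grew at 37 °C in high-sugar DMEM with FBS. The groups then spent 10 min at 37 °C, 40 °C or 44 °C and have 4 biological replicates each. They differ in no other label, and the labels do not give the time between this exposure and RNA extraction. No differentiation treatment is named.

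Fibrillar collagens assemble into the banded fibrils that carry tension in connective tissue, and type II with types IX and XI makes up the fibrils of cartilage. Basement membrane collagens, the type IV chains, form sheet-like networks under epithelia and around many mesenchymal cells. The other chains include the beaded filaments of type VI that surround chondrocytes, chains that sit on the surface of fibrils (the FACIT class), short-chain networks, multiplexins of basement membrane zones and transmembrane collagens. Newly made chains are hydroxylated and folded in the endoplasmic reticulum with helper proteins, exported, trimmed and cross-linked.

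The study addressed effects of temperature on chondrocyte growth, and the comparisons set each heated group against 37 °C and the heated groups against each other. Library totals lay between 16269026 and 19506705 counts. Genes were tested when they had enough counts (filterByExpr of edgeR), which left 14424 genes, 26 of them collagen chains. A gene was called at a Benjamini-Hochberg adjusted p under 0.05 in edgeR's quasi-likelihood test over all 14424 genes. Levels are given as CPM (counts of a gene relative to the scaled library size) within a gene and as RPKM (CPM per kilobase of gene length) between genes. Sums over several genes, the marker ranges in this paragraph and limits for genes without a read are CPM on library totals, without scaling. Libraries of a group differed along a common axis, the first principal component of deviations from the group means over all genes but the collagens. This axis held 29.7% of the within-group variance. Libraries were also projected on this axis with the group means left in, so these projected scores hold differences between temperatures too. The 37 °C libraries had projected scores of −0.423 ± 0.781, the 40 °C libraries 0.0132 ± 1.02 and the 44 °C libraries 0.41 ± 1.25 (mean ± SD, n = 4 each). Of 10 chondrocyte markers 4 passed the count filter. The chondrogenic regulator gene Sox9 had 33.3 to 70.2 CPM over the 12 libraries, Sox5 3.85 to 9.95, Acan 0.795 to 2.63 and Matn3 0.57 to 1.86 CPM. Sox6, Comp and Cnmd had at most 4 counts, and Col9a1, Matn1 and Hapln1 had no read. The cartilage matrix genes of this list were therefore low or absent. Col2a1 and Col10a1, left out of the genes described here, are not covered by this. The mesenchymal filament gene Vim had 3118 to 4409 CPM.

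Among the 42 chains and by RPKM, ATDC5 cells carried mRNA mainly of types IV, VI, VIII, XVIII and XVI, and very little of type I. Types II and X were left out, so their place in this order is not given. Of the 42 chains, 13 reached a mean of 1 RPKM in at least 1 temperature group, 13 more passed the count filter below that level, 14 had some reads without passing it and 2 had none. By type, 9 of 10 fibrillar, 4 of 6 basement membrane and 13 of 26 other chains passed the filter. Of these, 4 fibrillar, 2 basement membrane and 7 other chains reached 1 RPKM. Summed over the members, collagens took 1448 ± 142 CPM at 37 °C, 1421 ± 211 CPM at 40 °C and 1004 ± 147 CPM at 44 °C on library totals (SD, 4 libraries a group).

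Among the basement membrane chains, Col4a1 and Col4a2, which form the common type IV trimer, were the expressed pair. Col4a1 had 44.3 ± 1.6 RPKM and Col4a2 17.3 ± 0.754 RPKM at 37 °C. Col4a4 (0.1 ± 0.0157 RPKM at 37 °C) and Col4a3 (0.0591 ± 0.0189 RPKM), chains of the kidney filtration membrane, passed the count filter at low levels. Their partner Col4a5 had 0 to 2 counts per library, and Col4a6 had 0 or 1. Among the other chains, Col6a1 led with 45.7 ± 8.06 RPKM at 37 °C, above its filament partners Col6a2 (6.36 ± 0.827 RPKM) and Col6a3 (0.809 ± 0.154 RPKM). Next came the short-chain network gene Col8a1 (25.7 ± 1.47 RPKM), the multiplexin Col18a1 (21.6 ± 2.83 RPKM), whose end fragment is endostatin, and the FACIT chain Col16a1 (16.8 ± 1.63 RPKM). The FACIT chain Col12a1 (2.31 ± 0.292 RPKM) and Col7a1, the chain of anchoring fibrils (1.08 ± 0.0872 RPKM), were the other two above 1 RPKM.

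None of the fibrillar chains described here, which leave out Col2a1, reached the RPKM of Col4a1, Col4a2, Col6a1, Col8a1, Col18a1 and Col16a1. Col3a1, the type III chain of skin and vessel walls, had 7.72 ± 0.906 RPKM at 37 °C. The type V chains, which start fibrils and limit their width, had 6.75 ± 0.477 RPKM (Col5a1), 4.14 ± 0.139 RPKM (Col5a2) and 3.72 ± 1.02 RPKM (Col5a3). Col27a1 (0.481 ± 0.052 RPKM) and the cartilage chains Col11a1 (0.347 ± 0.177 RPKM) and Col11a2 (0.137 ± 0.0537 RPKM) stayed below 1 RPKM. Col24a1 had 0.151 ± 0.0125 RPKM. Type I collagen, the main collagen of bone and skin, was nearly absent: Col1a1 had 0.252 ± 0.0202 RPKM at 37 °C, and Col1a2 had 1, 0, 0 and 4 counts at 37 °C, 2, 4, 1 and 0 counts at 40 °C and 6, 3, 9 and 4 counts at 44 °C.

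The remaining chains had few or no reads. The transmembrane chains Col17a1 and Col25a1, the FACIT chain Col20a1 and the type VI chains Col6a4 and Col6a5 passed the filter with mean levels from 0.0492 (Col6a5 at 40 °C) to 0.193 RPKM (Col20a1 at 44 °C). Below the filter, Col8a2 had 1 to 21 counts per library, Col9a3 had 0 to 15, Col22a1 had 2 to 11, Col14a1 had 1 to 9 and Col28a1 had 1 to 6. Col9a2, Col23a1, Col13a1, Col15a1, Col6a6 and Col26a1 had at most 5. Col9a1 and Col19a1 had no read in any library, which allows up to 0.154 to 0.184 CPM per library (3 counts, counting error only).

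**Figure D1:**
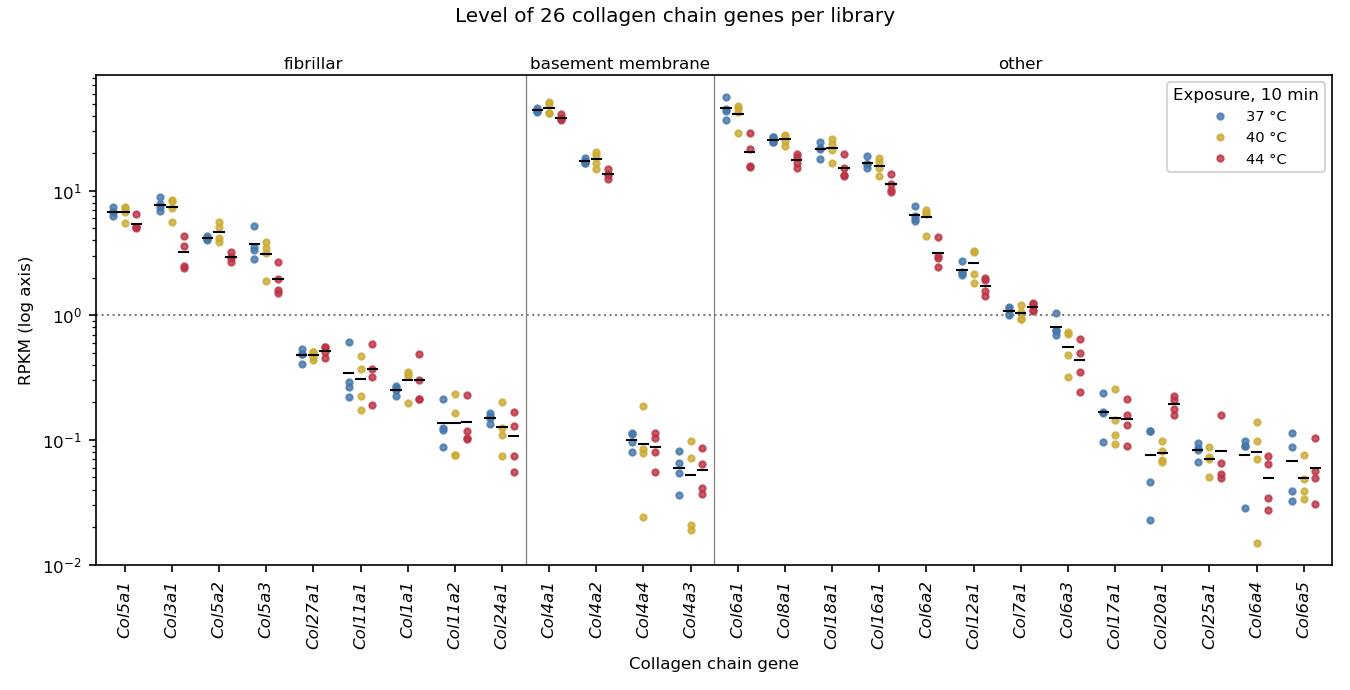
RPKM (log axis) of the 26 collagen chain genes that passed the count filter, grouped as fibrillar, basement membrane and other. Points are the 4 libraries at 37 °C, 40 °C and 44 °C, bars their means, and the dotted line is 1 RPKM, which 13 genes reach in at least 1 group.

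Heating for 10 min at 44 °C was followed by lower mRNA of most of the well-expressed collagen chains. Against 37 °C, 10 of the 26 tested members fell and 1 rose, while over all genes 13.7% were called, 7.11% lower and 6.58% higher. The 1 that rose, Col20a1, had few reads and passed the count filter through the 44 °C group, so its rise was part of its selection. The median log2 fold change of the tested members was −0.33, against −0.000335 over all genes, and 20 of 26 had a value below 0, as did 50% of all genes. Unadjusted p-values under 0.05 were found for 14 members and 30.9% of all genes. The 13 members at 1 RPKM or more held 9 of the falls, and among all genes at that level 8.13% were called lower and 7.89% higher. For 11 members every library at 44 °C was lower than every library at 37 °C, and for Col20a1 every library was higher. Over all genes this held for 9.13% and 8.62%. By type, 3 of 9 fibrillar, 1 of 4 basement membrane and 6 of 13 other chains fell. Summed fibrillar chains averaged 135 ± 24.9 CPM in the 44 °C libraries, against 214 ± 25 CPM in the 37 °C libraries. Type IV chains averaged 379.7 ± 26.3 CPM at 44 °C, against 449 ± 21.6 CPM at 37 °C, and the other chains 489 ± 96.5 CPM at 44 °C, against 786 ± 96.2 CPM at 37 °C (SD, n = 4 each). Col4a1 held 28.7% of the collagen counts at 44 °C and 22.9% at 37 °C, and Col6a1 held 8.96% at 44 °C and 14% at 37 °C. In bulk samples, fewer cells of a type and less RNA per cell cannot be told apart. All 12 libraries come from 1 cell line, and p-values measure the spread between these cultures.

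Sequences just upstream of the start sites are shown for 5 of the 10 fallen members, to set side by side promoters of genes that were low in the same libraries. These are the members with a RefSeq start equal to that of the deposited gene and no annotated exon in the window. They are the 100 bases before the RefSeq start on GRCm38.p6, 5′ to 3′ along the gene, with capitals where a motif matched on either strand. The motifs were the GC box (GGGCGG, which reads CCGCCC from the opposite strand), the TATA box (TATAAA), the CCAAT box and the heat shock element (GAANNTTC).
Col3a1, chr1:45311438-45311537, plus strand: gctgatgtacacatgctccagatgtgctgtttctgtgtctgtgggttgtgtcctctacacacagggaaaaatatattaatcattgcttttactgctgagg
Col5a3, chr9:20815068-20815167, minus strand: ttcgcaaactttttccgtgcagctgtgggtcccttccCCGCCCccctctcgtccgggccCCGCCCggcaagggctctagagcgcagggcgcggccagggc
Col6a2, chr10:76623631-76623730, minus strand: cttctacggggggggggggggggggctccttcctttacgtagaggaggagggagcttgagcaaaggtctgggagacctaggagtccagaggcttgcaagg
Col6a3, chr1:90843972-90844071, minus strand: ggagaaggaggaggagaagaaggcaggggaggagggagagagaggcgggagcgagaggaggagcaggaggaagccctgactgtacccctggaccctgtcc
Col8a1, chr16:57754738-57754837, minus strand: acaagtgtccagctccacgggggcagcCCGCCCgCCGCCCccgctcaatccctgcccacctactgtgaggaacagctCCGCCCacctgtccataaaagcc
GC boxes lay in the windows of Col8a1 (starting 73, 66 and 23 bases upstream) and Col5a3 (63 and 41), all on the opposite strand, and none of the 4 motifs lay in the windows shown for Col3a1, Col6a2 and Col6a3. At another RefSeq start of Col6a2, GC boxes lay 67, 15 and 11 bases upstream. In the wider windows from 250 bases before to 50 after a start, which RefSeq gives for 34 of the 42 members, both strands were searched. The 34 genes have 37 windows. The GC box was in 23 of these windows, where 35.7% of all 32851 windows hold it. Counted by gene, it was in a window of 22 of the 34 members, and of 6 of the 9 fallen members that have one. The CCAAT box was in 13 of 37 windows (37.4% of all windows) and, by gene, in 13 of the 34 members and 4 of the 9. The TATA box was in 4 of 37 windows (13.6%), with Col3a1 as the fallen one. The heat shock element was in 1 of 37, that of Col4a5 (7.86%). A match is a stretch of letters and not a site known to be bound.

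Col3a1 (chromosome 1, 45311538 to 45349706, mm10) had the largest fall of the tested members. It had 87.8, 76.2, 66.9 and 72.1 CPM at 37 °C, 70.7, 55.1, 82.4 and 81.3 CPM at 40 °C and 42.9, 23.7, 35.1 and 24.2 CPM at 44 °C. Every library at 44 °C lay below every library at 37 °C and at 40 °C. The change from 37 °C was 0.416 times (44 °C over 37 °C; log2 fold change −1.27 ± 0.17 (SE), adjusted p = 0.00051, edgeR). Its neighbour Col5a2 (chromosome 1, 45374321 to 45503282), on the opposite strand 24614 bases away with no gene between, had 41.4, 39.9, 39 and 38.3 CPM at 37 °C, 39.9, 37.5, 53.8 and 48.6 CPM at 40 °C and 30.6, 25.5, 27.8 and 28 CPM at 44 °C. The 44 °C libraries again lay below all others, with a smaller change (log2 fold change −0.50 ± 0.10 (SE), adjusted p = 0.00609). Within libraries, the ratio of Col3a1 to Col5a2 in RPKM was 1.68 to 2.07 at 37 °C, 1.44 to 1.73 at 40 °C and 0.844 to 1.37 at 44 °C. The 44 °C libraries lay below all others.

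The other two type V chains had lower means at 44 °C, and Col5a3 was called. Col5a3 (chromosome 9, 20770050 to 20815067) had 35.3, 22.9, 19.3 and 23.9 CPM at 37 °C, 21.7, 12.9, 23.5 and 26.6 CPM at 40 °C and 18.4, 10.3, 13.4 and 10.8 CPM at 44 °C. It fell against 37 °C (log2 fold change −0.94 ± 0.23 (SE), adjusted p = 0.0166), with no overlap between those 2 groups. The call was lost without 37 °C replicate 1, 44 °C replicate 2 or 44 °C replicate 4 (adjusted p 0.0551 to 0.0623). Col5a1 (chromosome 2, 27886425 to 28039514) had 62.6, 57, 52.7 and 56.9 CPM at 37 °C, 57.3, 47, 62.8 and 61.5 CPM at 40 °C and 55.3, 42.7, 43.2 and 43.7 CPM at 44 °C. The first library at 44 °C lay among the 37 °C libraries, and the gene was not called (log2 fold change −0.31 ± 0.10 (SE), adjusted p = 0.0537). Col27a1, Col11a1, Col1a1, Col11a2 and Col24a1 were not called, with log2 fold changes from −0.49 (Col24a1) to 0.27 (Col1a1).

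Col6a1 and Col6a2 fell, and Col6a3 passed the test narrowly. Col6a1 (chromosome 10, 76708792 to 76726168) had 248, 193, 163 and 198 CPM at 37 °C, 209, 128, 187 and 203 CPM at 40 °C and 126, 68.5, 95.1 and 67.5 CPM at 44 °C. All 44 °C libraries lay below those of the other groups, and the level was 0.446 times that at 37 °C (log2 fold change −1.17 ± 0.19 (SE), adjusted p = 0.00184). Col6a2 (chromosome 10, 76595762 to 76623630), 85161 bases from Col6a1 on the same strand, had 62.8, 52.4, 47.3 and 49.4 CPM at 37 °C, 53.6, 36, 55.3 and 58.3 CPM at 40 °C and 35.6, 20.2, 24.8 and 24 CPM at 44 °C. It showed the same separation (log2 fold change −1.02 ± 0.17 (SE), adjusted p = 0.00175). The RPKM ratio of Col6a1 to Col6a2 was 5.35 to 7.29 at 44 °C and 6.55 to 7.61 at 37 °C, and these ranges overlapped. Col6a3 (chromosome 1, 90765923 to 90843971), the third chain of the common filament, had 12.4, 9.09, 8.25 and 9 CPM at 37 °C, 8.75, 3.8, 5.77 and 8.49 CPM at 40 °C and 7.7, 4.19, 5.96 and 2.91 CPM at 44 °C. Its 44 °C libraries lay below those at 37 °C but overlapped those at 40 °C, and its test value was near the threshold (log2 fold change −0.90 ± 0.28 (SE), adjusted p = 0.0454). The call was lost with library totals (adjusted p = 0.0521) and without any 1 of 8 libraries, namely 37 °C replicates 1, 2 and 4, 40 °C replicates 1 and 3 and 44 °C replicates 2, 3 and 4 (adjusted p 0.0508 to 0.141). Col6a4 (−0.61, adjusted p = 0.471) and Col6a5 (−0.18, adjusted p = 0.83), at 2 to 21 and 5 to 18 counts per library, were not called.

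Network, FACIT and multiplexin chains with high levels also fell. Col8a1 (chromosome 16, 57624258 to 57754737), a component of vessel walls and of the corneal inner membrane, had 213, 191, 192 and 210.2 CPM at 37 °C, 196, 179, 216 and 220.1 CPM at 40 °C and 153, 119, 146 and 131 CPM at 44 °C. No library at 44 °C reached the level of a library at 40 °C or 37 °C (log2 fold change −0.55 ± 0.0828 (SE), adjusted p = 0.00103). Col16a1 (chromosome 4, 130047840 to 130099283) had 128, 111, 102 and 111 CPM at 37 °C, 102, 87.9, 114 and 123 CPM at 40 °C and 92.6, 68.7, 76.6 and 65.5 CPM at 44 °C. The 44 °C group lay below the 37 °C group (log2 fold change −0.58 ± 0.12 (SE), adjusted p = 0.00538) and overlapped that at 40 °C. Col18a1 (chromosome 10, 77052178 to 77166548), on the chromosome of the type VI pair and 326009 bases beyond Col6a1, had 174, 156, 126 and 153 CPM at 37 °C, 148, 118, 165 and 182 CPM at 40 °C and 139, 93.7, 106 and 91.3 CPM at 44 °C. The first library at 44 °C lay above the third at 37 °C, so the groups overlapped although the gene passed the test (log2 fold change −0.50 ± 0.14 (SE), adjusted p = 0.0341). The call was lost without any 1 of 37 °C replicates 1, 2 and 4 and 44 °C replicates 2, 3 and 4 (adjusted p 0.066 to 0.105). Col12a1 (log2 fold change −0.42 ± 0.17 (SE), adjusted p = 0.11) was not called, although its 44 °C libraries (30.3, 23.9, 29 and 21.9 CPM) lay below those at 37 °C (41.8, 33.2, 32.2 and 33.6 CPM). At 40 °C it had 32.9, 27.7, 48.6 and 50.1 CPM. Col7a1 (0.10, adjusted p = 0.55) was not called, with 12.8, 11.2, 12.6 and 11.2 CPM at 44 °C, against 11.7, 12.1, 10.3 and 10.5 CPM at 37 °C, and 9.65, 9.62, 10.9 and 12.4 CPM at 40 °C.

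Of the collagens called for 44 °C against 37 °C, the type IV chain Col4a2 had the smallest change. Col4a2 (chromosome 8, 11312805 to 11449287) had 122, 111, 111 and 114 CPM at 37 °C, 110, 98.7, 129 and 136 CPM at 40 °C and 99.2, 89.7, 88.4 and 81.6 CPM at 44 °C. It fell against 37 °C (log2 fold change −0.35 ± 0.0892 (SE), adjusted p = 0.0188), with no overlap, and the call was lost without 37 °C replicate 1 or 44 °C replicate 4 (adjusted p 0.0591 to 0.0609). Col4a1 (chromosome 8, 11198423 to 11312826) had 347, 328, 318 and 328 CPM at 37 °C, 315, 316, 370.2 and 382 CPM at 40 °C and 307, 278, 284 and 276 CPM at 44 °C. Its 44 °C libraries lay below all others, and the adjusted p of 0.0501 was just above the threshold (−0.21 ± 0.0659 SE). Both genes start at one site in opposite directions and share 22 exonic bases, 0.295% of the length of Col4a1. Within libraries the RPKM ratio of Col4a1 to Col4a2 was 2.52 to 2.61 at 37 °C, 2.49 to 2.84 at 40 °C and 2.74 to 3 at 44 °C. The 44 °C libraries overlapped those at 40 °C and not those at 37 °C. Col4a4 had 1.21, 0.849, 1.18 and 1.01 CPM at 37 °C, 0.893, 0.253, 0.832 and 1.99 CPM at 40 °C and 1.11, 0.849, 0.585 and 1.2 CPM at 44 °C, with all groups overlapping (log2 fold change −0.19 ± 0.43 (SE), adjusted p = 0.806). Col4a3 gave −0.06, adjusted p = 0.948.

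Col20a1, a FACIT chain (chromosome 2, 180986535 to 181018363), was the member that rose. It had 20, 15, 14 and 19 counts at 44 °C and 12, 10, 2 and 4 counts at 37 °C, with 6, 8, 8 and 6 at 40 °C, and the 44 °C libraries lay above the rest (log2 fold change 1.31 ± 0.39 (SE), adjusted p = 0.0379). All 4 libraries exceeded 10 counts only at 44 °C, so the gene passed the count filter through the group in which it is high. These are few reads, and 79 of its exonic bases are shared on the same strand with 9230112E08Rik, which had 22 to 47 counts, so the assignment is uncertain. The call was lost without 37 °C replicate 3 or 4, without 40 °C replicate 1 or 3, and without any 1 of the 4 libraries at 44 °C (adjusted p 0.0515 to 0.111).

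**Figure D2:**
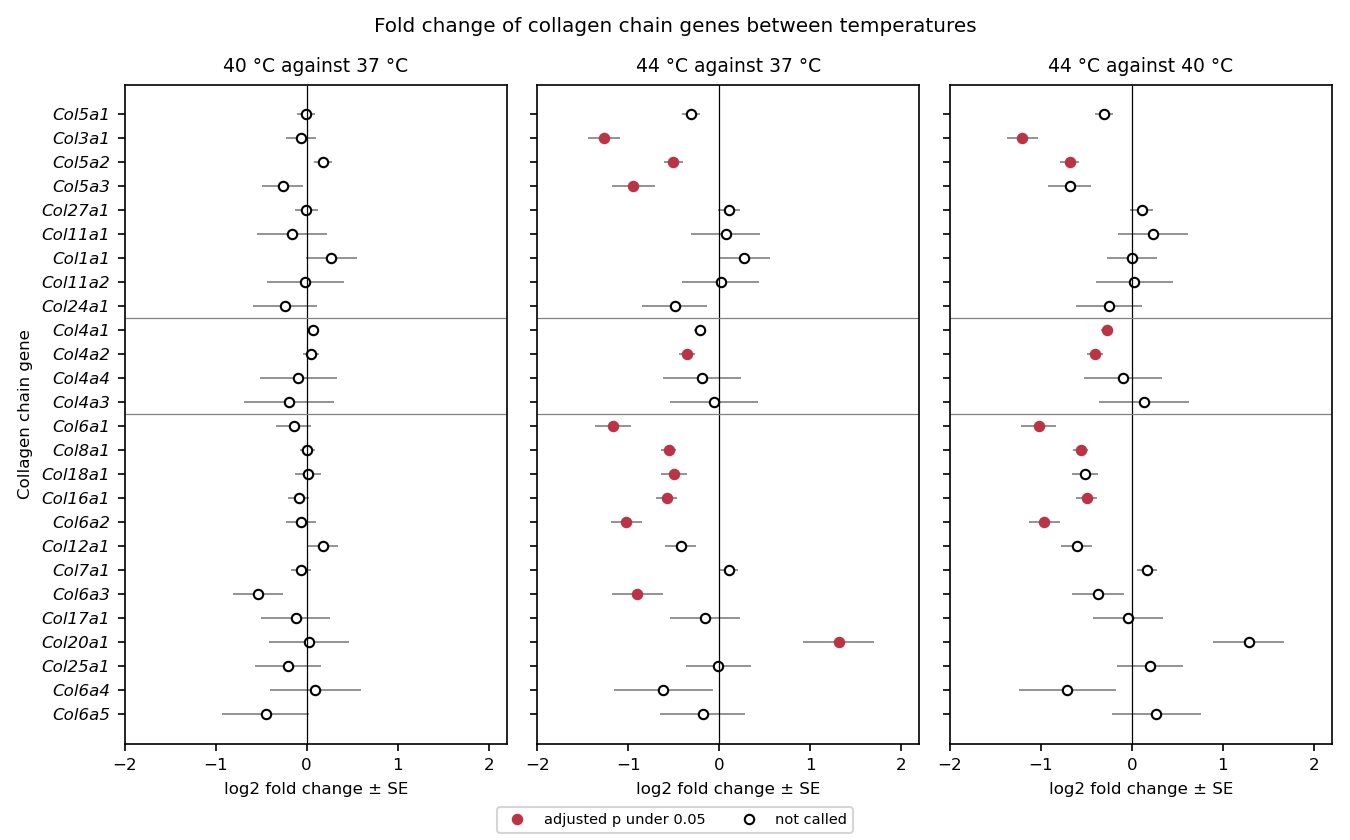
Log2 fold change ± SE of the 26 tested collagen chain genes for 40 °C against 37 °C, 44 °C against 37 °C and 44 °C against 40 °C, from top to bottom fibrillar, basement membrane and other. Filled points passed the test, which was 0, 11 and 8 genes, and Col20a1 is the lone filled point above 0.

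At 40 °C no collagen chain was called against 37 °C by edgeR, in either direction, and 0% of all 14424 genes were called. None of the 26 had an unadjusted p under 0.05, which 5.21% of all genes had, and DESeq2 called none either. The median of the members was −0.0625, and 17 of 26 had a value below 0, as did 50.3% of all genes. Values ran from −0.53 (Col6a3, adjusted p = 0.823) to 0.27 (Col1a1, adjusted p = 0.85), and all 26 members had overlapping groups, while for 3.85% of all genes the groups did not overlap (2.22% lower and 1.64% higher). The SE was 0.19 for Col6a1 and 0.0658 for Col4a1 on the log2 scale.

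Against 40 °C, 8 of 26 members fell at 44 °C and none rose, where 5.02% of all genes were called, 3.14% lower and 1.88% higher. Among all genes at 1 RPKM or more 3.77% were called lower and 2.18% higher. An unadjusted p under 0.05 was found for 13 members, 12 lower and 1 higher (Col20a1), and for 20.1% of all genes. DESeq2 called 12 members lower and none higher, and of all 13138 genes with an adjusted p it called 749 lower and 427 higher. For 6 members every library at 44 °C was lower than every library at 40 °C, and for Col20a1 every library was higher. Over all genes this held for 5.45% and 5.27%. Col20a1 passed the count filter through the 44 °C group. The median of the members was −0.29, and 17 of 26 had a value below 0, as did 47.8% of all genes. The 8 were Col3a1 (−1.20, adjusted p = 0.00123), Col5a2 (−0.68, adjusted p = 0.00152), Col4a1 (−0.27, adjusted p = 0.0262), Col4a2 (−0.40, adjusted p = 0.0171), Col6a1 (−1.02, adjusted p = 0.00666), Col6a2 (−0.96, adjusted p = 0.00436), Col8a1 (−0.56, adjusted p = 0.00145) and Col16a1 (−0.49, adjusted p = 0.0225), each a log2 fold change. Col18a1 (−0.51, adjusted p = 0.0546), Col5a3 (−0.68, adjusted p = 0.113), Col6a3 (−0.37, adjusted p = 0.506) and Col20a1 (1.29, adjusted p = 0.0723) were not called. This comparison shares its 44 °C libraries with the one against 37 °C. Of the 8 falls, 5 remained without 40 °C replicate 3, without 40 °C replicate 4 or without 44 °C replicate 4. Over all genes, 280, 284 and 302 fell in these fits. A joint test over the 3 temperatures called 9 members, Col4a1, Col4a2, Col3a1, Col5a2, Col5a3, Col6a1, Col6a2, Col8a1 and Col16a1, where 8.21% of all genes were called. With library totals in place of scaled sizes, 271 genes higher and 453 lower over all genes became 396 higher and 355 lower, and 7 collagens were called lower, without Col4a1 (adjusted p = 0.0575).

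Among the 13 members at 1 RPKM or more, some libraries were the highest or lowest of their group for most genes. At 37 °C replicate 1 was the highest for 12 and replicate 3 the lowest for 11. At 40 °C replicate 4 was the highest for 9 and replicate 2 the lowest for 12. At 44 °C replicate 1 was the highest for all 13, and the lowest was replicate 2 for 7 and replicate 4 for 6. These ranks were counted for the members only, and no share over all genes is given. Projected scores on the axis of all genes but the collagens were −1.47 for 37 °C replicate 1 and 1.46 for 40 °C replicate 2. They were −1.07 for 44 °C replicate 1, 1.5 for 44 °C replicate 2 and 1.38 for 44 °C replicate 4. The other 7 lay between −0.946 and 0.401. The projected scores of the 12 libraries were then used as a covariate, a setting added after the data were seen. These scores also hold differences between temperatures. For 44 °C against 37 °C, 12 members fell and 1 rose. Over all 14424 genes this setting called 1624 lower and 1533 higher, against 1026 and 949 without the covariate. The change was then smaller for each of the 10 members that fell. It moved by over 1.5 times for Col18a1 (−0.32), was −0.63 for Col5a3 and −0.60 for Col6a3, and was −1.07 for Col3a1 and −0.93 for Col6a1. Col5a1, not called without the covariate, had −0.20. The calls of 44 °C against 37 °C also depended on single libraries: 6 members fell without 37 °C replicate 1 and 6 without 44 °C replicate 4. Over all genes, 574 and 624 fell in these fits. Col3a1, Col5a2, Col6a1, Col6a2, Col8a1 and Col16a1 were called lower under each of the 12 leave-one-out fits.

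**Figure D3:**
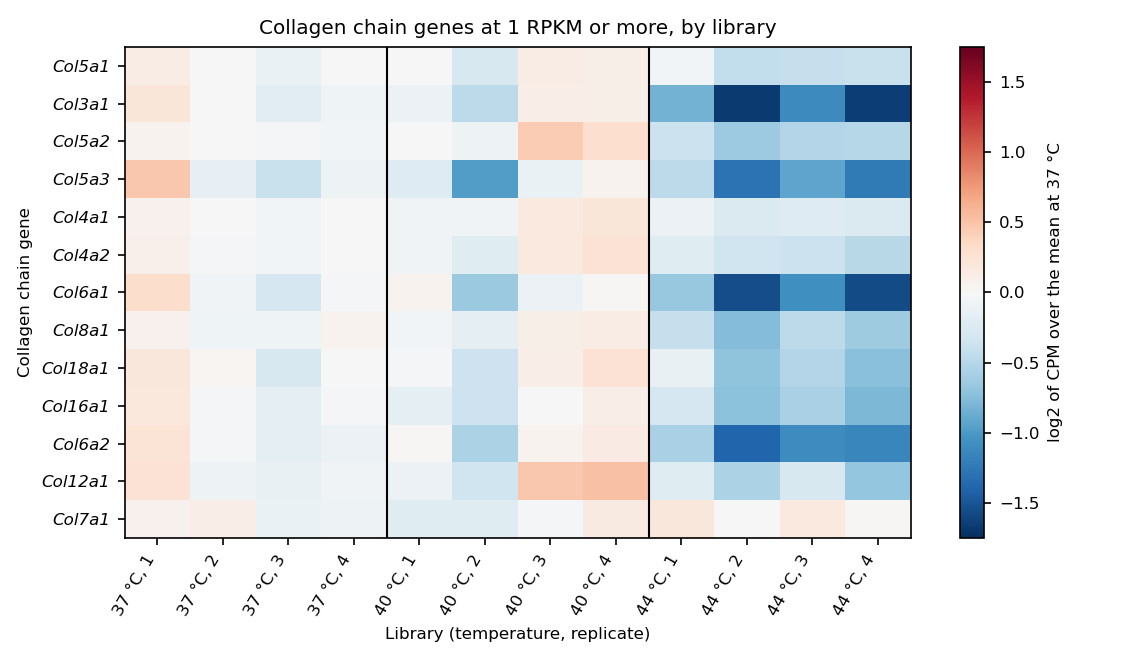
Log2 of CPM over the mean of the 37 °C libraries for the 13 collagen chain genes at 1 RPKM or more (rows) in the 12 libraries (columns, by temperature and replicate). Blue is lower and red higher than the 37 °C mean. The 44 °C columns are bluest for Col3a1, Col5a3, Col6a1 and Col6a2, and 44 °C replicate 1 is the palest of its group for each gene except Col7a1, which was not called.

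Levels of markers for other cell types moved as well. Smooth muscle and perivascular markers summed to 204 to 232 CPM at 37 °C, 213 to 261 CPM at 40 °C and 135 to 163 CPM at 44 °C. The 3 of 7 that were tested (Acta2, Pdgfrb and Cspg4) fell at 44 °C against 37 °C. Rgs5, Myh11 and Des had at most 4 counts in any library, and Tagln at most 8. Of 6 tested fibroblast and mesenchyme markers 5 fell (Vim, Twist1, Prrx1, S100a4 and Fn1), and Pdgfra was not called. Thy1 and Fap, with at most 10 and 14 counts in any library, did not pass the count filter. The list summed to 7161 to 8574 CPM at 37 °C, 6346 to 8582 CPM at 40 °C and 5318 to 6855 CPM at 44 °C. Of 4 tested endothelial markers Pecam1 rose. Cdh5 was also called higher, but it had at most 14 counts in any library and would not have passed the count filter without the 44 °C group. The 6 of the list summed to 5.6 to 7.71 CPM at 44 °C, against 4.31 to 4.77 CPM at 37 °C. Of 3 tested osteoblast markers Spp1 fell (2029 to 3017 CPM summed at 44 °C, against 3011 to 4077 CPM at 37 °C). Of 4 tested epithelial markers Krt14 fell (119 to 150.4 CPM summed at 44 °C, against 110.4 to 147 CPM at 37 °C), with Krt5 at 0. Krt18 went the other way, with a mean of 108.9 CPM at 44 °C, against 91.5 CPM at 37 °C. It was not called against 37 °C (log2 fold change 0.25, adjusted p = 0.0748, edgeR) but was called higher against 40 °C (0.34, adjusted p = 0.0385). No macrophage and blood marker was called, of 2 tested (28.2 to 40.7 CPM summed at 44 °C, against 36.8 to 51.9 CPM at 37 °C), with Adgre1 at 0. None of 4 tested chondrocyte markers was called (41.3 to 82.2 CPM summed at 44 °C, against 53.4 to 82.8 CPM at 37 °C). Over all genes, 7.11% fell and 6.58% rose at 44 °C against 37 °C. The part of these markers in the fall of the collagens was not tested.

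Genes that modify and fold collagen chains in the endoplasmic reticulum fell in 7 of 16 tested cases at 44 °C against 37 °C. None rose, and the median log2 fold change was −0.22. Of all genes, 7.11% were called lower and 6.58% higher in that comparison. Serpinh1, which encodes the heat-inducible collagen chaperone HSP47, averaged 272 ± 7.52 CPM at 44 °C, against 363 ± 8.39 CPM at 37 °C (SD, n = 4 each; log2 fold change −0.42 ± 0.051 (SE), adjusted p = 0.000224, edgeR). The lysyl hydroxylase genes Plod3 (−0.33, adjusted p = 0.00229) and Plod1 (−0.23, adjusted p = 0.0178) fell. So did P4hb, the shared subunit of the prolyl hydroxylases (−0.31, adjusted p = 0.00259), and P4ha3, a catalytic subunit (−0.70, adjusted p = 0.0111). Ppib, the gene of cyclophilin B, which isomerises prolines of the chains, fell too (−0.25, adjusted p = 0.00417). Against 40 °C, 7 of the 16 fell as well, where 3.14% of all genes were called lower and 1.88% higher.

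Genes of procollagen export did not share a direction at 44 °C against 37 °C. In this comparison 7.11% of all genes were called lower and 6.58% higher. The inner coat gene Sec24d (−0.28, adjusted p = 0.0303) and Creb3l2, whose product drives secretory genes in cartilage (−0.39, adjusted p = 0.0395), fell. The outer coat gene Sec13 (0.29, adjusted p = 0.0406) and the ubiquitin ligase adaptor gene Klhl12 (0.28, adjusted p = 0.0137) rose, of 12 tested (median −0.00327). Of 10 tested genes of procollagen trimming and cross-linking, 4 fell and none rose, with a median of −0.36. They were Pcolce (−0.49, adjusted p = 0.000815) and Pcolce2 (−0.24, adjusted p = 0.00861), which enhance trimming of the C-terminal end, the trimming protease gene Bmp1 (−0.30, adjusted p = 0.0489) and Adamts14, a protease for the N-terminal end (−0.38, adjusted p = 0.0425). Of 3 tested small proteoglycans that bind fibrils, Dcn (decorin) fell (−0.79, adjusted p = 0.00255).

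Among 16 tested partners of type IV collagen in basement membranes 5 fell and none rose (median −0.15). These were the proteoglycan genes Agrn (−0.67, adjusted p = 0.0116) and Hspg2 (perlecan, −0.31, adjusted p = 0.0288) and the laminin chain genes Lama4 (−0.52, adjusted p = 0.0169), Lama3 (−0.46, adjusted p = 0.0148) and Lamc1 (−0.21, adjusted p = 0.0421). Of 9 tested collagen receptors only Ddr1 was called, as lower (−0.34, adjusted p = 0.0414). Of 14 tested transcription regulators Cebpb fell (−0.48, adjusted p = 0.00622), while Cebpz (0.42, adjusted p = 0.0383) and Nfya, a subunit of the CCAAT-binding factor NF-Y (0.29, adjusted p = 0.00891), rose. None of the genes of these 7 lists was called for 40 °C against 37 °C by edgeR, and DESeq2 called no gene in that comparison. Beside these shares, 7.11% of all genes fell and 6.58% rose at 44 °C against 37 °C.

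**Figure D4:**
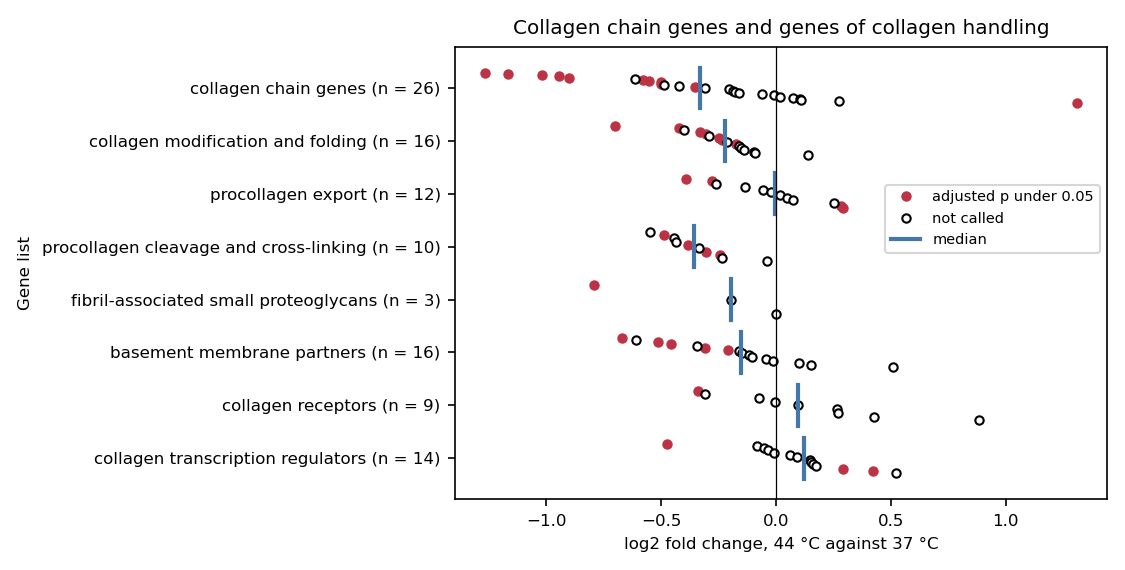
Log2 fold change at 44 °C against 37 °C (x axis) of the tested collagen chain genes and of 7 lists of genes that handle, bind or regulate collagens (rows, with the number tested). Each point is a gene, filled where it passed the test, and blue bars are medians, which run from −0.36 for procollagen cleavage and cross-linking to 0.12 for transcription regulators.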

How the data were processed

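Messenger RNA of 12 ATDC5 libraries, 4 per temperature, was selected with poly-T beads and sequenced, per the labels' protocols. The authors deposited unnormalized counts, in a separate column for each library, without pooling. The build mm10 and the tools featureCounts 1.5.0-p3, HISAT2 2.0.5, fastp and StringTie 1.3.3b are named in the submitters' processing notes, without roles. Whether counting used the strand is not given in the sources used here. The gene length in the table, a separate deposited column in bases, equalled the GENCODE M21 exon union for 40 of 42 members.

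Counts were tested in R 4.3.3 with edgeR 4.0.16 (filterByExpr at its settings of 10 counts and a total of 15, TMM scaling, 1 quasi-likelihood model over all 12 libraries), which kept 99.86% to 99.9% of counts. F-tests were two-sided, and SE is the log2 fold change over the square root of F. Libraries of a group differed (chi-square per gene 2.88 to 21.4 over 18 pairs), so each counted as 1 replicate. Alternatives were other scalings, filters and groups in the fit, DESeq2 1.42.0, a replicate block, covariates and leaving out each library. The members, the gene lists and the rule for named genes were chosen with earlier results of these data known. That rule gave values per library for called members and for the 3 highest per type by RPKM, and named up to 6 called genes per list by smallest p. No other per-sample columns were present. Limits for genes without a read cover counting error only, while SD and SE hold the spread between libraries.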

Additional observations from a re-analysis of the deposited data

Results flagged for a closer look

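Single libraries stood apart from the others of their group (Dixon's test at its 95% critical value) in 6 of 78 sets of 4 values (26 members in 3 groups). Chance gives about 1 set in 20. Col5a1 had 55.3 CPM in 44 °C replicate 1, the highest of its group, against 42.7 to 43.7 CPM in the other 3 libraries. Col12a1 had 41.8 CPM in 37 °C replicate 1, the highest of its group, against 32.2 to 33.6 CPM in the other 3 libraries. Col1a1 had 1.31 CPM in 40 °C replicate 1, the lowest of its group, against 2.15 to 2.29 CPM in the other 3 libraries. Col25a1 had 2.04 CPM in 44 °C replicate 1, the highest of its group, against 0.643 to 0.849 CPM in the other 3 libraries. Col11a2 had 1.58 CPM in 44 °C replicate 2, the highest of its group, against 0.7 to 0.799 CPM in the other 3 libraries. Col6a4 had 0.242 CPM in 37 °C replicate 2, the lowest of its group, against 0.756 to 0.835 CPM in the other 3 libraries. Without 44 °C replicate 1, Col5a1 was called lower for 44 °C against 37 °C (adjusted p = 0.00689).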

How the results depend on the processing

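The falls kept their direction for every called member under all alternatives run. For 44 °C against 37 °C, 10 members called lower became 6 at an adjusted p under 0.01. They lay between 6 and 12 when 1 library was left out. Over all genes, 1026 called lower became 394 at 0.01 and lay between 564 and 1638 when 1 library was left out. The 1 member called higher became 0 with DESeq2 and with a mean of at least 1 CPM, where Col20a1 had no adjusted p or was not tested. It also became 0 without a low-count filter, with only the groups compared and at 0.01, and lay between 0 and 1 when 1 library was left out. Over all genes, 949 called higher became 1295 with DESeq2, 966 with a mean of at least 1 CPM and 1099 without the filter. They became 744 with only the groups compared and 236 at 0.01. For 44 °C against 40 °C, 8 members called lower became 5 with only the groups compared and 5 at 0.01. They lay between 5 and 12 when 1 library was left out. Over all genes, 453 called lower became 231 with only the groups compared and 191 at 0.01. They lay between 277 and 791 when 1 library was left out. The 0 members called higher became 1 with the within-group axis in the model and 1 with its projected scores (Col20a1). They lay between 0 and 1 when 1 library was left out. Over all genes, 271 called higher became 1554 with the axis and 1169 with the projected scores. For 40 °C against 37 °C, 0 called lower became 2 (Col5a3 and Col6a3) when the within-group axis entered the model, which takes residual spread out by construction. Col4a4, not called in any of them, changed sign with the projected scores in the model (log2 fold change 0.070 for 44 °C against 37 °C and 0.0887 against 40 °C). For 44 °C against 40 °C it lay between −0.398 and 0.476 when 1 library was left out, and was above 0 without 40 °C replicate 4 or 44 °C replicate 3. The cause was not tested. Over all genes, 630 to 5034 were called for 44 °C against 37 °C and 270 to 3216 for 44 °C against 40 °C. For 40 °C against 37 °C, 595 genes (339 higher) were called with the within-group axis in the model, 13 without the low-count filter, 11 with the projected scores, 1 without 44 °C replicate 1 and 0 in the other settings. With the replicate number as a block, 11 members fell and 1 rose for 44 °C against 37 °C. For 44 °C against 40 °C 11 fell, and 0 were called for 40 °C against 37 °C. Over all 14424 genes the block gave 1290 lower and 1267 higher for 44 °C against 37 °C. For 44 °C against 40 °C it gave 568 lower and 333 higher. Within-group deviations of libraries with the same number correlated between −0.207 and 0.366 over 12 pairs. Libraries with different numbers correlated between −0.392 and 0.31. These ranges overlapped and the labels state no pairing, so the numbers were not taken to pair the samples. The 13 members at 1 RPKM or more became 15 at 0.5 RPKM and 12 at 2 RPKM. For members with few counts, such as Col20a1 (2 to 20), the depth limits what could be detected.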
